A study of Macaca fascicularis with 16 samples.

Results

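Type I interferon-stimulated antiviral genes are described here in blood mononuclear cells of cynomolgus macaques given NKTT320. The group holds 37 genes, chosen by symbol from the count tables made per animal, and all 37 were found with 1 entry each among 23602 gene symbols. It was divided into OAS genes (OAS1, OAS2, OAS3, OASL), IFIT genes (IFIT1, IFIT2, IFIT3, IFIT5), MX genes (MX1, MX2), IFI44 genes (IFI44, IFI44L), the pair IFI6 and IFI27, sensors of viral RNA (DDX58, IFIH1, DHX58, DDX60), PARP genes (PARP9, PARP12, PARP14 and the PARP9 partner DTX3L), ISG15 conjugation (HERC5, HERC6, USP18), SAMD9 genes (SAMD9, SAMD9L), the pair RSAD2 and CMPK2, and 8 others (IFI35, XAF1, EPSTI1, SIGLEC1, EIF2AK2, PLSCR1, IFITM1, LGALS3BP). All 37 passed the filter on low counts and were tested among 11545 genes.

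As background, type I interferons bind a receptor made of IFNAR1 and IFNAR2, and the kinases JAK1 and TYK2 then signal through ISGF3, a transcription factor that contains STAT2 and IRF9 and binds the promoters of most genes described here. Their products act at different steps: OAS enzymes make a second messenger that activates RNase L, IFIT proteins bind viral RNA, MX proteins are dynamin-like GTPases that trap viral components, and the sensors recognise viral RNA and feed back on interferon production. In blood the set is widely read as an interferon signature, and monocytes and plasmacytoid dendritic cells are among the strong responders and producers.

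The samples were mononuclear cells from the blood of LG04, LG11, LG12 and LG15, 4 cynomolgus macaques (Macaca fascicularis) of Mauritian origin. Each animal was bled before dosing and 30 minutes, 2 hours and 1 day after NKTT320, which gave 16 libraries, 4 per time. NKTT320 is a monoclonal antibody against the invariant receptor carried by iNKT cells, a rare type of T cell that sees lipids on CD1d. The labels mark every library as NKTT320 treated, the pre-treatment ones included, and give no age, dose or sex. The study asked what the antibody does to iNKT cells in the living animal; untreated animals were not analysed here, so the drug cannot be told apart from elapsed time or from the bleeding itself. Total RNA depleted of ribosomal RNA was sequenced as single reads, and totals were 1417467 to 8582852 counts per library, so that 3 counts stood for 0.35 to 2.12 CPM (a count scaled to library size) before further scaling. Markers of T cells (8 of 8), B cells (7 of 7), NK cells (6 of 6) and classical monocytes (11 of 12) passed the filter, as did those of platelets (8 of 8), red cells (7 of 7) and neutrophils (7 of 8).

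The 1 day library of LG04 stood apart from the other libraries of that animal. Of 6 genes at 3 CPM or more in the first 3 libraries of LG04 and at most 1 CPM in those of the other animals (CTSE, KIAA1045, SELENBP1, SLC12A3, SLC13A4, TRIM67), 0 reached 3 CPM in it, and 1 of them did in the 1 day library of LG15. With the further scaling used below, SLC7A4 met this rule as well. In LG04 it had 80.9 CPM before dosing, 201 at 30 minutes, 303 at 2 hours and 0 at 1 day. Its highest level in the first 3 libraries of the other animals was 0.997 CPM, in LG15 at 2 hours. Of the other animals, LG11 had 1 such gene (KCNH1), which was kept at 1 day, LG12 had 1 (ALDH1L1), which was not, and LG15 had 0. Globin genes took 13.6% of counts in LG04 at 1 day, against 48.7% at 2 hours, 38.2% at 30 minutes and 20.3% before dosing. The main results at 1 day are therefore given with and without this library. Other values at 1 day include it unless stated.

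Levels are CPM scaled by TMM (trimmed mean of M values), and changes are log2 fold changes fitted with edgeR, each with its standard error (SE). Over the 4 times, 26 of the 37 genes were highest at 2 hours and 31 were lowest at 1 day by the fitted values. The same counts over all genes are not given. The median change of the 37 genes against pre-treatment was 0.11 at 30 minutes, 0.21 at 2 hours and -0.52 at 1 day. The same medians over all 11545 genes were 0.02, 0.02 and 0.00. Every animal had a negative median at 1 day against pre-treatment, with -0.68 in LG04, -0.89 in LG11, -0.23 in LG12 and -0.34 in LG15. In bulk samples such as these, fewer cells of a type and less RNA per cell cannot be told apart.

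**Figure D1:**
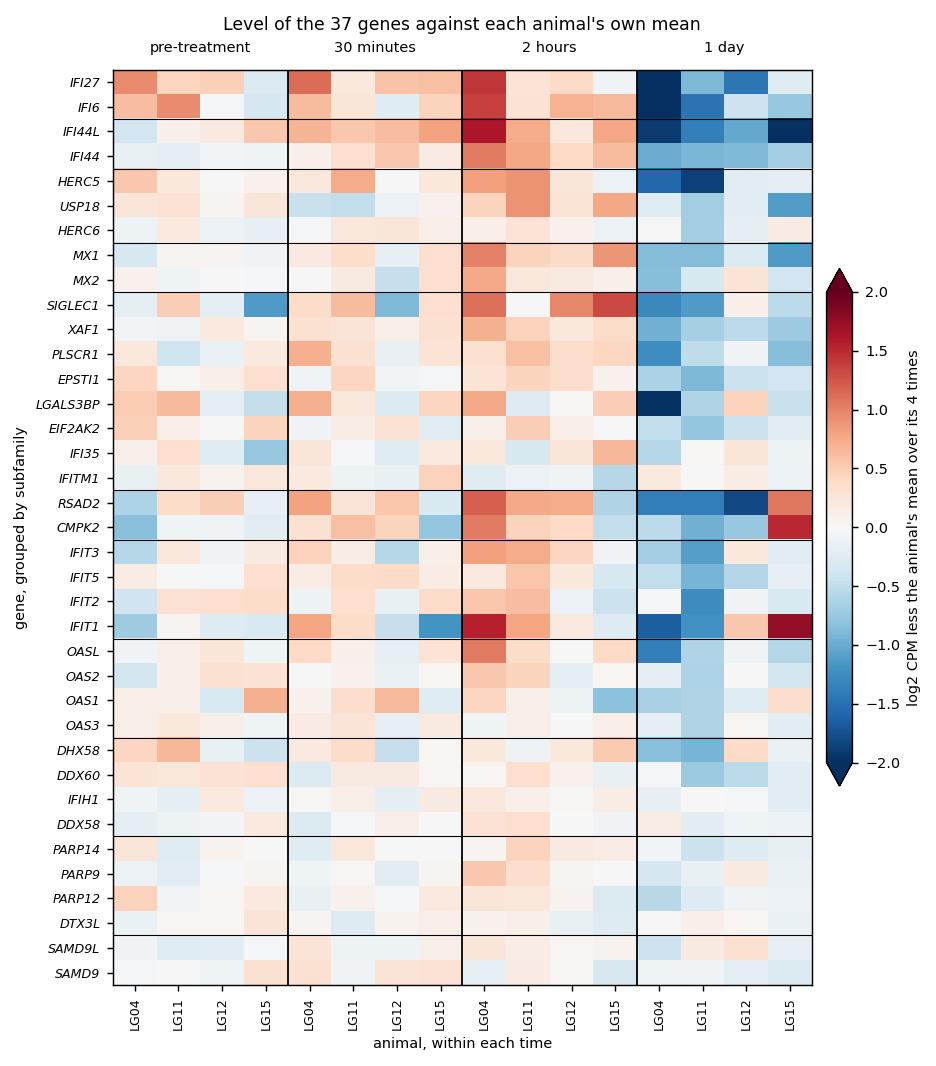
Level of the 37 genes in the 16 libraries, as log2 CPM less the mean of the same animal over its 4 times (red above, blue below), with libraries grouped by time and genes by subfamily. The 2 hours block is mostly red and the 1 day block mostly blue, and RSAD2, CMPK2 and IFIT1 go against this in LG15 at 1 day.

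The clearest difference was between 1 day and 2 hours. Of the 37 genes, 35 were lower at 1 day, beside 5993 of all 11545 genes. The median log2 change was -0.64, beside -0.02 over all genes. The median was -0.91 in LG04, -1.07 in LG11, -0.23 in LG12 and -0.24 in LG15, and without the 1 day library of LG04 the fitted median was -0.59 with 32 genes lower. In edgeR's quasi-likelihood test with Benjamini-Hochberg adjustment over all genes, 4 of the 37 fell: IFI44, IFI44L, MX1 and XAF1. The background was 12 of 11545 genes called, or 0.104%. At an unadjusted p under 0.05, 20 of the 37 were lower and 0 higher, where 5.48% of all genes were called lower. In 4 of 4 animals 18 of the 37 were lower, beside 9.16% of all genes.

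IFI44 (human Entrez gene 10561), a cytoplasmic protein that interferon induces, had the smallest p of the 37 genes. It had 5.25, 15.0, 6.37 and 3.15 CPM in LG04, LG11, LG12 and LG15 at 1 day, against 22.5, 48.8, 15.98 and 8.47 CPM at 2 hours. These values rest on 8, 126, 11 and 8 counts at 1 day, and on 75, 406, 74 and 17 counts at 2 hours. Each animal was lower at 1 day, and the groups overlapped since LG11 lay above the others at both times. At 30 minutes the same animals had 11.6, 36.1, 17.8 and 6.01 CPM, against 9.70, 24.9, 11.6 and 4.98 CPM before dosing. IFI44 fell 3.16-fold between 2 hours and 1 day (log2 -1.66 ± 0.20, SE; edgeR adjusted p = 0.0066). Its mean was 7.45 ± 5.23 CPM at 1 day and 24.0 ± 17.6 CPM at 2 hours (SD, n = 4). It was also the only one of the 37 genes called in the test of any difference over the 4 times (edgeR adjusted p = 0.029), where 0.104% of all genes were called; at an unadjusted p under 0.05 that test held 16 of the 37 and 12.2% of all genes.

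IFI44L (10964), its neighbour and paralog, had 1.97, 14.1, 2.32 and 0.394 CPM in LG04, LG11, LG12 and LG15 at 1 day, against 27.4, 62.4, 6.05 and 5.48 CPM at 2 hours. The low values rest on few reads, with 3, 4 and 1 counts in LG04, LG12 and LG15 at 1 day and 118 in LG11. At 30 minutes it had 14.01, 53.9, 8.06 and 5.62 CPM, against 6.52, 39.7, 5.82 and 4.61 CPM before dosing. IFI44L fell 5.66-fold at 1 day against 2 hours (log2 -2.50 ± 0.37; edgeR adjusted p = 0.017), the largest fitted change of the 4 called genes. LG11 alone exceeded 10 CPM at all 4 times.

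MX1 (4599), the cytoplasmic GTPase that blocks influenza and other viruses, had 30.8, 71.8, 33.0 and 15.4 CPM in LG04, LG11, LG12 and LG15 at 1 day, against 114, 179, 52.7 and 63.3 CPM at 2 hours. At 30 minutes it had 64.3, 166, 36.0 and 43.2 CPM, against 45.5, 136, 41.9 and 32.7 CPM before dosing. All 4 animals were highest at 2 hours and lowest at 1 day. MX1 fell 2.78-fold (log2 -1.48 ± 0.22; edgeR adjusted p = 0.017), and its smallest count in any library was 39, so its change rests on more reads than those of the other called genes.

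XAF1 (54739), a pro-apoptotic antagonist of the caspase inhibitor XIAP, had 5.90, 21.7, 5.79 and 7.89 CPM in LG04, LG11, LG12 and LG15 at 1 day, against 19.5, 48.0, 9.94 and 17.5 CPM at 2 hours. At 30 minutes it had 14.8, 41.4, 9.33 and 16.7 CPM, against 11.4, 33.0, 9.89 and 13.8 CPM before dosing. XAF1 fell 2.28-fold at 1 day against 2 hours (log2 -1.19 ± 0.17; edgeR adjusted p = 0.017).

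These 4 changes kept their direction in every setting run, and the calls did not all hold. Without the 1 day library of LG04 the log2 changes were -1.62 for IFI44, -2.36 for IFI44L, -1.43 for MX1 and -1.11 for XAF1, and IFI44 alone was called (edgeR adjusted p = 0.03, and 0.092 for the other 3), beside 0.0504% of all genes. Leaving out any 1 animal with all its libraries left 0 of the 37 genes called, as did a model with no animal term. The share of all genes called in these fits is not given, so the 0 is no result particular to the 37. DESeq2 called 9 of the 37, all lower, where it called 0.768% of all genes: the 4 above with EPSTI1, IFI27, IFI6, OASL and PLSCR1.

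**Figure D2:**
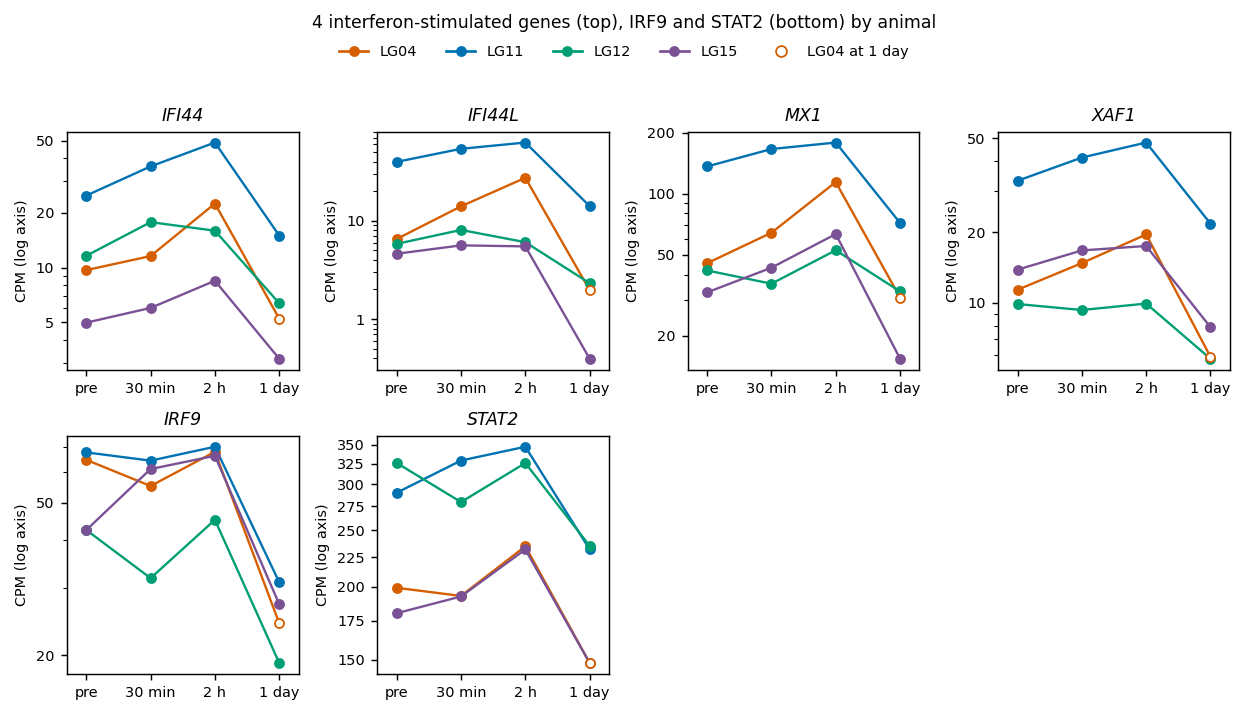
CPM on a log axis of IFI44, IFI44L, MX1 and XAF1 (top) and of IRF9 and STAT2 (bottom) at the 4 times, with 1 line per animal; the open point is the 1 day library of LG04. In each of the 6 genes every animal is lower at 1 day than at 2 hours, and LG11 lies highest in the upper panels.

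Several genes of the group had larger fitted changes than XAF1 without passing the adjusted threshold. IFI27, a mitochondrial and nuclear envelope protein used as a blood marker of viral infection, had 0.656, 1.43, 0 and 0.394 CPM in LG04, LG11, LG12 and LG15 at 1 day, against 32.5, 3.73, 1.08 and 0.499 CPM at 2 hours. It was plentiful in 1 animal only, LG04, with 26.0 CPM at 30 minutes, against 23.1 CPM before dosing. LG11, LG12 and LG15 had 3.57, 1.27 and 1.05 CPM at 30 minutes, against 4.22, 1.16 and 0.369 CPM before dosing. Its log2 change at 1 day against 2 hours was -2.51 ± 0.59 (edgeR adjusted p = 0.17), and in LG04 alone -4.94; without the 1 day library of LG04 it was -1.57. This change rests on few reads, with 1, 12, 0 and 1 counts in LG04, LG11, LG12 and LG15 at 1 day. At 2 hours the counts were 108, 31, 5 and 1.

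IFI6, an endoplasmic reticulum protein that limits flavivirus replication, had 5.25, 18.5, 6.37 and 13.4 CPM in LG04, LG11, LG12 and LG15 at 1 day, against 88.4, 64.1, 14.3 and 36.4 CPM at 2 hours. The values of IFI6 at 30 minutes were 52.9, 62.2, 7.21 and 31.5 CPM, against 52.5, 100.9, 8.34 and 18.3 CPM before dosing. Its log2 change at 1 day against 2 hours was -2.08 ± 0.43 (edgeR adjusted p = 0.12), and all 4 animals were lower. SIGLEC1, a sialic-acid receptor of interferon-exposed monocytes and macrophages, had a log2 change of -1.82 ± 0.51 (edgeR adjusted p = 0.22). SIGLEC1 ran between 2.62 and 4.18 CPM at 1 day, against 5.62 to 15.6 CPM at 2 hours.

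SIGLEC1, USP18 and EPSTI1 were the 3 genes of the 37 whose 4 values at 1 day all lay below their 4 values at 2 hours, a pattern that 1.03% of all genes showed. USP18, the protease that removes ISG15 and blocks signalling at IFNAR2, had 2.62, 1.67, 2.32 and 1.18 CPM in LG04, LG11, LG12 and LG15 at 1 day, against 4.51, 5.90, 3.46 and 5.48 CPM at 2 hours. USP18 had 2.24, 2.01, 2.54 and 3.26 CPM at 30 minutes, against 3.85, 3.75, 2.91 and 3.69 CPM before dosing. It is among the lowest genes of the group, with 3 to 14 counts at 1 day, and its log2 change was -1.40 ± 0.32 (edgeR adjusted p = 0.16). EPSTI1, an interferon-induced gene first described in epithelial-stromal interaction, had 22.3, 21.1, 20.9 and 24.4 CPM at 1 day, against 42.4, 54.0, 36.1 and 33.9 CPM at 2 hours. The same animals had 33.3, 53.7, 27.1 and 31.5 CPM at 30 minutes, against 47.3, 40.2, 30.4 and 40.6 CPM before dosing. The 4 animals thus lay close together at 1 day, and the log2 change of EPSTI1 was -0.90 ± 0.19 (edgeR adjusted p = 0.12).

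PLSCR1, a phospholipid scramblase with antiviral activity, had 13.8, 26.4, 13.9 and 12.2 CPM in LG04, LG11, LG12 and LG15 at 1 day, against 41.5, 57.4, 18.8 and 29.9 CPM at 2 hours (log2 -1.08 ± 0.26; edgeR adjusted p = 0.17). At 30 minutes PLSCR1 had 54.6, 46.4, 13.2 and 27.2 CPM, against 38.3, 28.5, 13.4 and 25.5 CPM before dosing. EIF2AK2, the kinase PKR that stops translation on binding double-stranded RNA, had 22.3, 33.4, 31.9 and 27.2 CPM at 1 day, against 33.7, 80.7, 47.3 and 31.9 CPM at 2 hours (log2 -0.69 ± 0.19; edgeR adjusted p = 0.22). Its values were 29.9, 63.1, 52.6 and 27.2 CPM at 30 minutes, against 43.8, 62.5, 43.1 and 43.2 CPM before dosing. PLSCR1 and EIF2AK2 were both lower at 1 day than at 2 hours in 4 of 4 animals. IFITM1, which restricts virus entry at the plasma membrane, went the other way with a log2 change of 0.29 ± 0.18 (edgeR adjusted p = 0.53) and was higher in 4 of 4 animals; DTX3L, at 0.04 ± 0.14, was the other gene above 0.

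By subfamily, the median log2 change at 1 day against 2 hours was -2.29 for IFI6 and IFI27, -2.08 for the IFI44 genes, -1.40 for ISG15 conjugation and -1.06 for the MX genes. It was -0.72 for RSAD2 and CMPK2, -0.71 for the IFIT genes and -0.47 for the OAS genes. The sensors (-0.34), the PARP genes (-0.34) and the SAMD9 genes (-0.11) had the medians nearest to 0, and 0 genes of these 3 groups were called. Without the 1 day library of LG04 the IFI44 genes came first (-1.99) and IFI6 and IFI27 after them (-1.62), and RSAD2 and CMPK2 had a median of -0.36. Within each animal, the mean change of IFI44 and IFI44L was more negative than that of the OAS, IFIT, MX, sensor, PARP, ISG15 conjugation and SAMD9 genes in 4 of 4 animals. It was more negative than that of RSAD2 and CMPK2 in 3 of 4, LG12 being the exception, and than that of IFI6 and IFI27 in 2 of 4. No test of subfamilies against each other was made, since the members of a subfamily are not replicates.

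Within the OAS genes, OASL, an OAS-like protein without the enzyme activity, had the most negative log2 change at -1.11 ± 0.28 (edgeR adjusted p = 0.22). OASL had 5.25, 28.3, 8.69 and 7.49 CPM in LG04, LG11, LG12 and LG15 at 1 day, against 30.1, 55.8, 9.07 and 15.0 CPM at 2 hours. At 30 minutes OASL had 19.1, 46.1, 8.06 and 13.8 CPM, against 13.7, 47.3, 10.9 and 10.7 CPM before dosing. OAS3, the OAS enzyme with the highest mean CPM and the one that senses long double-stranded RNA, had 81.3, 98.5, 122 and 89.1 CPM at 1 day, against 86.9, 163, 119 and 115 CPM at 2 hours. Its values were 103, 179, 105 and 119 CPM at 30 minutes, against 99.6, 173, 127 and 98.2 CPM before dosing. Its log2 change of -0.28 ± 0.16 (edgeR adjusted p = 0.49) was largest in size in LG11 (-0.73). OAS2 (-0.53 ± 0.21) and OAS1 (-0.42 ± 0.39) lay between them.

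Among the IFIT genes, IFIT3 had a log2 change of -1.03 ± 0.33, IFIT5 of -0.76 ± 0.22 and IFIT2 of -0.66 ± 0.33 (edgeR adjusted p = 0.28, 0.23 and 0.44). IFIT5, which binds RNA with a 5′ phosphate, had 21.0, 33.8, 20.3 and 29.2 CPM in LG04, LG11, LG12 and LG15 at 1 day, against 34.0, 95.6, 35.4 and 25.9 CPM at 2 hours. LG15 was the 1 animal in which it was not lower. At 30 minutes IFIT5 had 32.9, 83.6, 39.9 and 36.3 CPM, against 32.8, 65.1, 30.1 and 41.4 CPM before dosing. MX2, the nuclear-pore GTPase that restricts HIV-1, had 47.9, 105, 30.7 and 51.3 CPM at 1 day, against 146, 153, 28.7 and 71.8 CPM at 2 hours. At 30 minutes MX2 had 86.1, 149, 18.2 and 84.4 CPM, against 92.1, 123, 25.4 and 65.0 CPM before dosing. Its log2 change of -0.64 ± 0.24 (edgeR adjusted p = 0.32) was thus less than that of MX1 in size, and LG12 was not lower.

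Of the sensors, DDX58 (RIG-I) had a log2 change of -0.22 ± 0.15 and IFIH1 (MDA5) of -0.23 ± 0.14, and DHX58 (LGP2), their regulator, of -0.54 ± 0.34. DDX60, a helicase that aids RIG-I, had 87.2, 84.5, 54.4 and 69.8 CPM in LG04, LG11, LG12 and LG15 at 1 day, against 92.3, 177, 84.0 and 73.3 CPM at 2 hours (log2 -0.46 ± 0.18; edgeR adjusted p = 0.32). The level of DDX60 in LG04 and LG15 was nearly the same at 1 day and 2 hours. At 30 minutes DDX60 had 73.6, 159, 89.5 and 82.9 CPM, against 108, 165, 97.0 and 103 CPM before dosing. PARP14, a mono-ADP-ribosyltransferase and the gene with the highest mean CPM of the 37, had 228, 274, 209 and 213 CPM at 1 day, against 244, 511, 283 and 266 CPM at 2 hours (log2 -0.44 ± 0.16; edgeR adjusted p = 0.3). It had 199.9, 432, 251 and 239 CPM at 30 minutes, against 278, 313, 261 and 239 CPM before dosing. PARP9 (-0.36 ± 0.16) and PARP12 (-0.33 ± 0.18) were close to it.

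**Figure D3:**
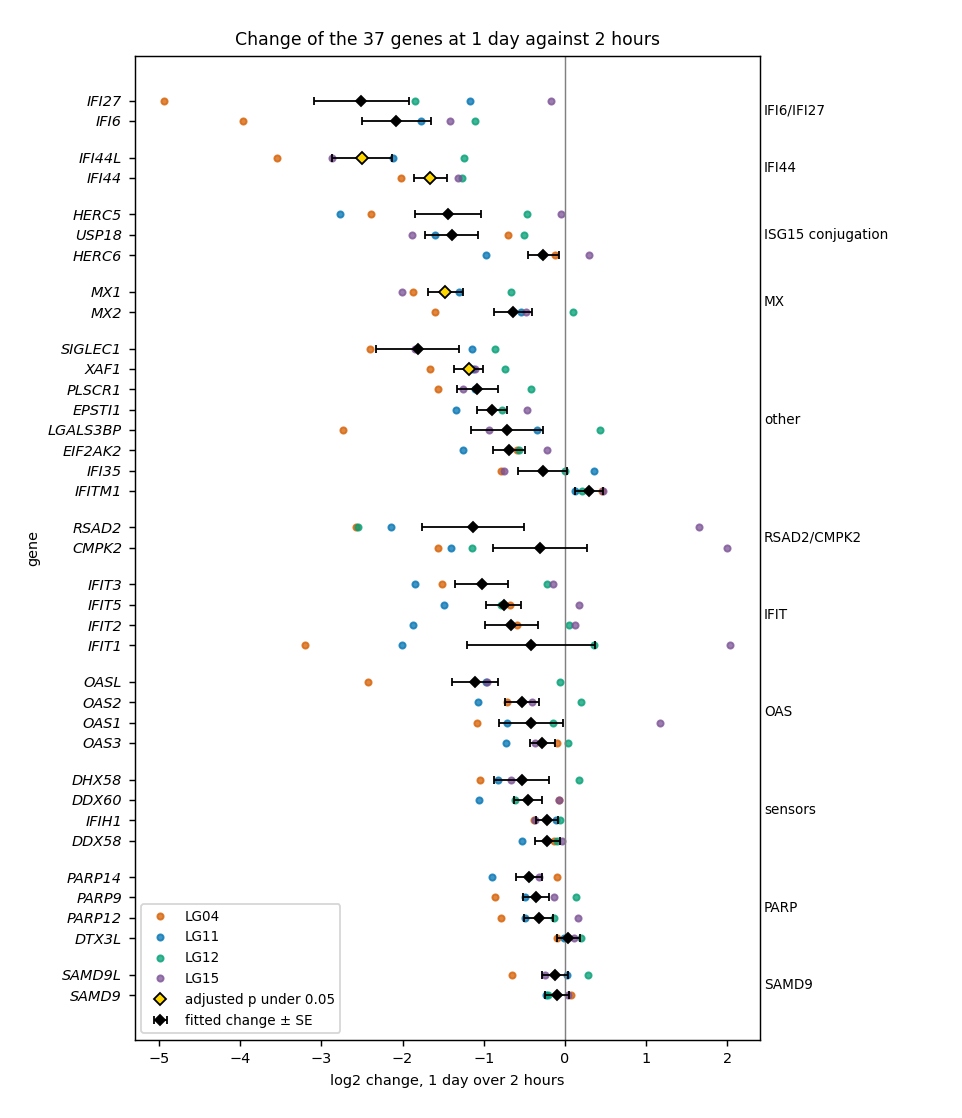
Log2 change of the 37 genes at 1 day over 2 hours, grouped by subfamily and ordered by the subfamily's median; diamonds are fitted changes with their SE, gold where the adjusted p was under 0.05, and dots are the changes in single animals. IFI44, IFI44L, MX1 and XAF1 are gold; 35 of the 37 diamonds lie below 0, and the dots of LG15 for RSAD2, CMPK2 and IFIT1 lie far above it.

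Against pre-treatment, 33 of the 37 genes were lower at 1 day, beside 5776 of all 11545 genes. Of the 37, 0 passed edgeR's adjusted threshold, where 0.225% of all genes did. Without the 1 day library of LG04 the median was -0.37, and 0 of the 37 were called again, beside 0.151% of all genes. At an unadjusted p under 0.05, 15 were lower and 0 higher, where 5.13% of all genes were called lower, and 16 of the 37 were lower in 4 of 4 animals, beside 9.09% of all genes. DESeq2 called 6 of the 37, all lower (EIF2AK2, EPSTI1, IFI27, IFI44L, IFI6 and XAF1), and 3.05% of all genes. The smallest adjusted p in edgeR was that of EPSTI1 (0.084, log2 -0.84 ± 0.19), which was lower in 4 of 4 animals. IFI44 (-0.79 ± 0.20), MX1 (-0.72 ± 0.22), XAF1 (-0.76 ± 0.17), EIF2AK2 (-0.76 ± 0.19) and DDX60 (-0.65 ± 0.17) were lower in 4 of 4 animals as well. The 3 comparisons at 1 day share the same 4 libraries, so their values are given side by side and do not count as separate evidence. IFIT1 (0.66 ± 0.77), CMPK2 (0.51 ± 0.57), SAMD9L (0.14 ± 0.16) and IFI35 (0.01 ± 0.29) were the 4 genes above 0.

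At 2 hours against pre-treatment, 29 of the 37 genes were higher, beside 6085 of all 11545 genes. Of the 37, 0 passed edgeR's adjusted threshold, as did 0% of all genes. At an unadjusted p under 0.05, 5 were higher (IFI44, MX1, IFI44L, XAF1 and SIGLEC1) and 0 lower, where 4.17% of all genes were called higher. Of the 37, 10 were higher in 4 of 4 animals, beside 8.06% of all genes. The log2 change was 0.87 ± 0.18 for IFI44 and 0.76 ± 0.21 for MX1 (edgeR adjusted p = 0.18 and 0.32), and DESeq2 called 1 of the 37, IFI44, and 0.574% of all genes.

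At 30 minutes against pre-treatment, 25 of the 37 genes were higher, beside 6230 of all 11545 genes. Of the 37, 0 were called by edgeR, beside 0% of all genes. IFI44 alone had an unadjusted p under 0.05 (log2 0.43 ± 0.18), where 1.05% of all genes were called higher, and it was higher in 4 of 4 animals. DESeq2 called 0 of the 37 and 0.149% of all genes. At 2 hours against 30 minutes edgeR called 0 of the 37 and 0% of all genes; IFI44, MX1 and USP18 were higher at an unadjusted p under 0.05, beside 2.31% of all genes, and DESeq2 called 0 of the 37 and 0.0744% of all genes. USP18 had a log2 change of 0.94 ± 0.29 at 2 hours against 30 minutes and was higher in 4 of 4 animals.

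At 1 day against 30 minutes, 36 of the 37 genes were lower, beside 6039 of all 11545 genes. The median log2 change of the 37 was -0.46. EdgeR called 0 of them, beside 0.0433% of all genes, though IFI44 and IFI44L lay just outside (edgeR adjusted p = 0.051 each). Without the 1 day library of LG04 these 2 had log2 changes of -1.17 and -2.07 (edgeR adjusted p = 0.14 each). At an unadjusted p under 0.05, 16 were lower and 0 higher, where 5.4% of all genes were called lower. DESeq2 called 7 of the 37, all lower, and 2.76% of all genes. In the test of any time DESeq2 called 8 of the 37 and 3.38% of all genes.

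IFIT1, RSAD2 and CMPK2 did not follow 1 course in the 4 animals. IFIT1, which binds RNA lacking the methylated cap of host messages, had 36.1, 7.76, 8.11 and 84.8 CPM in LG04, LG11, LG12 and LG15 at 1 day, against 335, 32.4, 6.26 and 20.4 CPM at 2 hours. LG15 thus had more IFIT1 at 1 day and LG04 and LG11 less. The fitted log2 change was -0.42 ± 0.79 (edgeR adjusted p = 0.9), and it was 0.31 without the 1 day library of LG04. Without the 1 day libraries of both LG04 and LG15 it was -1.36. At 30 minutes IFIT1 had 197, 24.1, 3.82 and 10.6 CPM, against 69.6, 19.2, 4.46 and 19.8 CPM before dosing.

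RSAD2 (viperin) makes a chain-terminating nucleotide, and CMPK2, its neighbour in the genome, supplies the CTP it starts from. RSAD2 had 8.52, 5.61, 0.579 and 18.1 CPM in LG04, LG11, LG12 and LG15 at 1 day, against 52.9, 26.1, 5.4 and 5.48 CPM at 2 hours. CMPK2 had 33.4, 10.02, 2.90 and 58.8 CPM at 1 day, against 99.8, 27.2, 6.91 and 14.5 CPM at 2 hours. The mean log2 change of the pair was -2.07, -1.77 and -1.85 in LG04, LG11 and LG12, and 1.82 in LG15. Without the 1 day library of LG04 the fitted changes were -0.74 for RSAD2 and 0.02 for CMPK2. Without those of both LG04 and LG15 they were -2.34 and -1.59. The rise in LG15 rests on its 1 day library, in which 1 gene marking LG04 was found. Whether these libraries are rightly named was not tested.

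Red-cell genes moved with IFIT1 in part. IFIT1B, an IFIT1 paralog that lies next to IFIT1 in the macaque gene table, had 643, 61.8, 6.95 and 1318 CPM in LG04, LG11, LG12 and LG15 at 1 day, against 6627, 61.6, 1.08 and 236 CPM at 2 hours. Globin genes took 13.6%, 3.65%, 0.172% and 20.8% of counts in the same order at 1 day, against 48.7%, 4.81%, 0.026% and 10.6% at 2 hours. IFIT1, IFIT1B and globin share were thus all lower at 1 day in LG04 and all higher in LG15. They were also higher in LG12, at low levels. In LG11 IFIT1 was lower at 1 day while IFIT1B was nearly level. Reads were counted on human gene models, so those of IFIT1 and IFIT1B may have been split wrongly. With the red-cell score as a covariate, an alternative added after the data were seen, the log2 change at 1 day against 2 hours was -0.81 for IFIT1, -1.23 for RSAD2 and -0.36 for CMPK2 (edgeR adjusted p = 0.33, 0.32 and 0.75), where it was -0.42, -1.13 and -0.31 without the score. Against pre-treatment IFIT1 had -0.33 with the score and 0.66 without it. At 1 day against 2 hours 4 of the 37 genes were called in that fit, beside 0.104% of all genes.

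**Figure D4:**
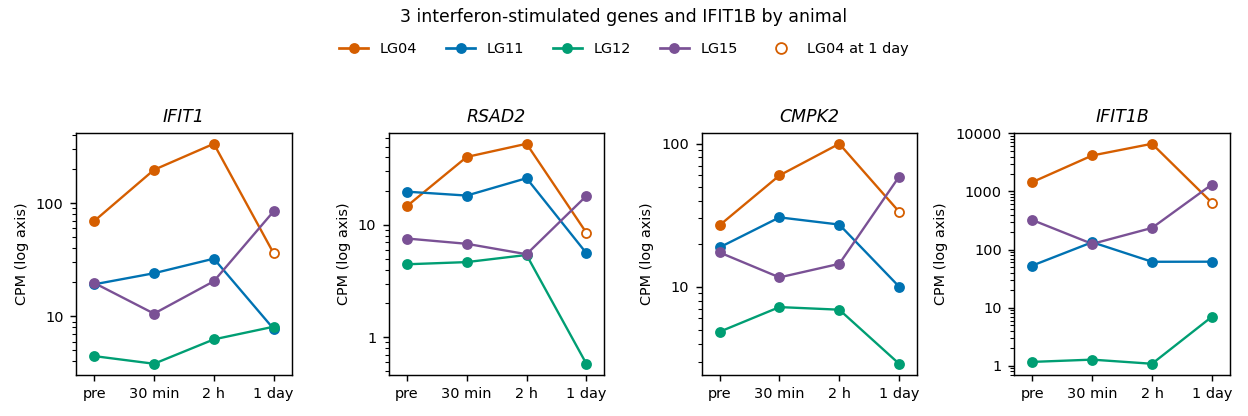
CPM on a log axis of IFIT1, RSAD2, CMPK2 and IFIT1B at the 4 times, with 1 line per animal; the open point is the 1 day library of LG04. LG15 is highest at 1 day in all 4 panels and LG04 at 2 hours.

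Animals differed more than times. The test of any difference between animals called 32 of the 37 genes in edgeR (86.5%), where 44.5% of all genes were called; DESeq2 called 32 of the 37 and 42.9% of all genes. The genes not called were DHX58, EPSTI1, IFI35, PARP12 and USP18. Of the variance of log2 CPM, a median of 60.8% lay between animals and 18.1% between times over the 37 genes, beside 46.4% and 12.2% over all genes. In 4 of the 37 genes more of the variance lay between times than between animals: USP18 (74.0% between times), EPSTI1 (65.1%), PARP12 (30.8%) and DHX58 (21.1%).

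LG11 had the highest mean over its 4 libraries in 30 of the 37 genes, LG04 in 4 (IFIT1, IFI27, RSAD2, CMPK2), LG15 in 2 (USP18, IFITM1) and LG12 in 1 (HERC6). LG11 was highest at all 4 times in 18 genes, and it was highest in 28 of the 37 before dosing, so its lead was present before the antibody was given. Shares over all genes are not given for these counts. Before dosing, nonclassical monocyte markers summed to 1196 CPM in LG11 and to 254 to 392 CPM in the other animals. Classical monocyte markers were highest in LG04, at 3600 CPM, against 2407 CPM in LG11. The part of cell makeup in the lead of LG11 was not tested. LG12 had the lowest mean in 19 genes and LG15 in 12. The highest animal exceeded the lowest by a median of 2.68-fold, with 1.21-fold for USP18 and 35.6-fold for IFI27 as the ends of the range. MX1 averaged 138 CPM in LG11, 63.7 in LG04, 40.9 in LG12 and 38.6 in LG15. IFI44L averaged 42.5 CPM in LG11, 12.5 in LG04, 5.56 in LG12 and 4.03 in LG15. Without LG11 the count called between animals was 15 of the 37, beside 23.5% of all genes, and without LG12 it was 20, beside 11.3%. Without LG04 it was 31, beside 38.4%, and without LG15 29, beside 43.9%.

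**Figure D5:**
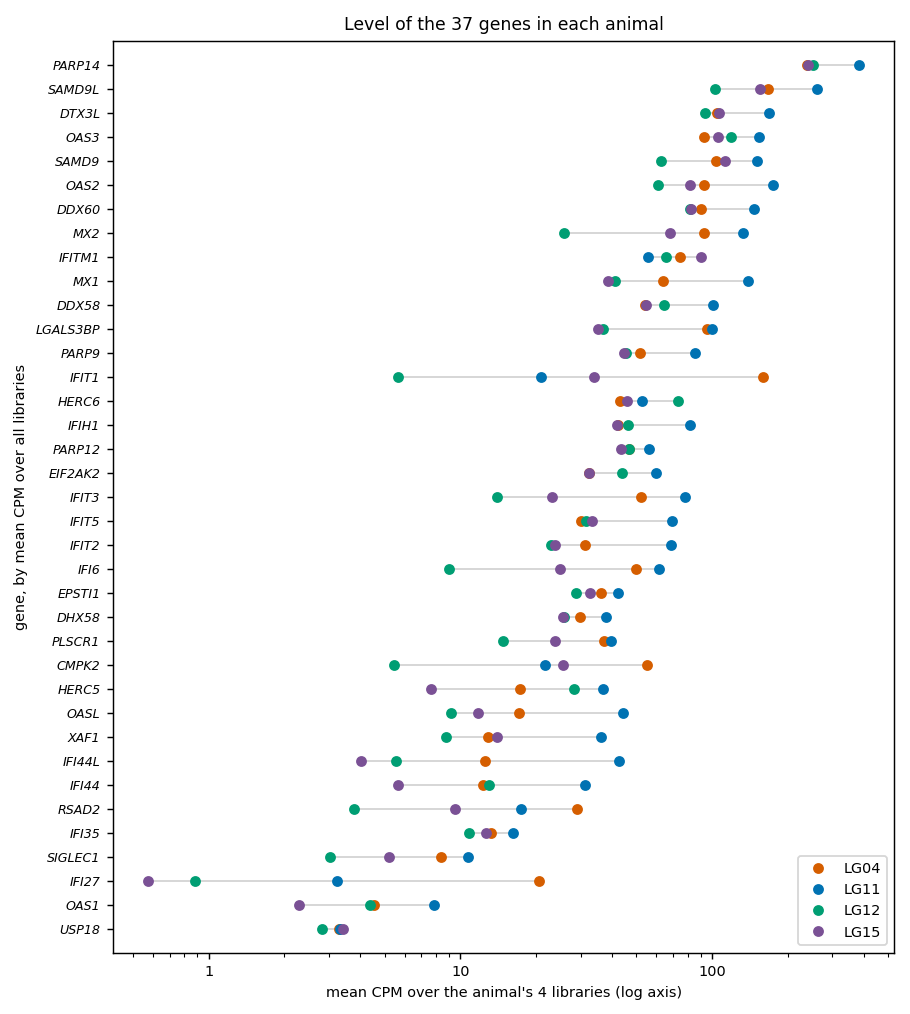
Mean CPM of each of the 37 genes over the 4 libraries of an animal, on a log axis, with genes ordered by their mean over all libraries. LG11 is the right-most point in 30 of the 37 genes, and the widest spreads are those of IFI27 and IFIT1.

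Compared per length, the mean FPKM (fragments scaled to gene length and library size, from the authors' deposited tables) was highest for IFITM1 at 132, IFI6 at 58.8 and PARP14 at 35.9. It was lowest for SIGLEC1 at 0.954 and USP18 at 1.51. Of the genes called at 1 day against 2 hours, MX1 averaged 24.5 FPKM, IFI44 9.72, XAF1 5.19 and IFI44L 2.67. IFITM1, IFI6 and PARP14 were thus not among the called genes. In the same comparison IFI6 and PARP14 were lower as well, with log2 changes of -2.08 and -0.44, and IFITM1 was higher (0.29).

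Upstream of the group, type I interferon transcripts were at the limit of detection. Of 20 type I and III interferon genes on a fixed list, 17 were in the tables, all of them type I. Type III transcripts were thus not measured. Of the 17, 15 had any count, and all together they had 56 counts over the 16 libraries. IFNB1, the interferon beta gene, had 1 count in total and the most frequent, IFNA6, had 19. None passed the filter, so no change in them could be tested at this depth. Whether counting on human gene models lowered their counts was not tested. The receptor genes IFNAR1 and IFNAR2 had log2 changes of 0.25 ± 0.19 and 0.05 ± 0.15 at 1 day against 2 hours (edgeR adjusted p = 0.66 and 0.96).

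IRF9, which gives ISGF3 its DNA specificity, was lower at 1 day and passed the threshold. IRF9 had 24.3, 31.0, 19.1 and 27.2 CPM in LG04, LG11, LG12 and LG15 at 1 day, against 67.9, 70.0, 45.1 and 66.3 CPM at 2 hours. At 30 minutes it had 55.3, 64.4, 31.8 and 61.2 CPM, against 64.7, 67.7, 42.5 and 42.5 CPM before dosing. All 4 values at 1 day lay below all 12 of the earlier ones. IRF9 fell at 1 day against 2 hours (log2 -1.29 ± 0.16; edgeR adjusted p = 0.0066), against 30 minutes (-1.05 ± 0.16; edgeR adjusted p = 0.035) and against pre-treatment (-1.09 ± 0.16; edgeR adjusted p = 0.015). Without the 1 day library of LG04 the first of these was -1.23 (edgeR adjusted p = 0.03), and with any 1 animal left out it lay between -1.29 and -1.24 with an adjusted p of 0.069 or more.

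STAT2 had 148, 232, 235 and 148 CPM in LG04, LG11, LG12 and LG15 at 1 day, against 235, 348, 326 and 232 CPM at 2 hours (log2 -0.59 ± 0.11; edgeR adjusted p = 0.085). It was lower in 4 of 4 animals. IRF7, which amplifies interferon production, was low and uneven (log2 -1.21 ± 0.70; edgeR adjusted p = 0.51), and SOCS1, a feedback inhibitor of the receptor kinases, had a log2 change of -0.91 ± 0.38 (edgeR adjusted p = 0.36). ISG15, the ubiquitin-like protein that HERC5 attaches and USP18 removes, was too low to be tested, with at most 4.80 CPM in any library; whether counting on human gene models lowered its level was not tested.

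Over the 62 tested genes of the fixed pathway lists outside the 37, 46 were lower at 1 day than at 2 hours with a median log2 change of -0.18, and IRF9 was the 1 called. By list, 10 of 13 genes of interferon induction were lower, 6 of 7 feedback inhibitors, 26 of 34 other interferon-stimulated genes and 1 of 5 receptor and kinase genes. At 2 hours against pre-treatment 42 of the 62 were higher, with a median of 0.10 and 0 called by edgeR.

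Markers of several cell types also had other levels at 1 day than at 2 hours. Classical monocyte markers had a median log2 change of -0.69 at 1 day against 2 hours (11 of 11 tested lower), with score changes of -2.21 in LG04, 0.47 in LG11, 0.69 in LG12 and -2.60 in LG15. Their summed level ran between 1201 and 7946 CPM at 1 day, against 1142 to 7610 CPM at 2 hours. In the same order of animals, the log2 change of IFI44 was -2.02, -1.67, -1.27 and -1.32. That of MX1 was -1.88, -1.31, -0.67 and -2.01. With the monocyte score as a covariate 4 of the 37 genes were called at 1 day against 2 hours, beside 0.0866% of all genes. At 1 day against pre-treatment 8 were called, all lower, in a fit that called 3.92% of all genes.

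Platelet markers were higher at 1 day in 8 of 8 (median log2 change 1.93; summed level 790 to 32140 CPM at 1 day, against 175 to 6345 CPM at 2 hours), and with the platelet score as a covariate 2 of the 37 genes were called, IFI44 and IFI44L, beside 0.0346% of all genes. MX1 and XAF1 had log2 changes of -1.52 and -1.23 in that fit (edgeR adjusted p = 0.18 each), where they had -1.48 and -1.19 without the score. Neutrophil markers were lower in 7 of 7 (median -1.35; summed level 153 to 368 CPM at 1 day, against 121 to 1962 CPM at 2 hours). Of 8 markers of plasmacytoid dendritic cells 4 were tested, with a median of -0.25 (summed level 317 to 374 CPM at 1 day, against 330 to 424 CPM at 2 hours), and IL3RA was at 0 in all libraries. Of the lymphocyte markers, those of B cells were higher at 1 day in 7 of 7 (median 0.38), those of T cells in 7 of 8 (0.20), and those of NK cells were lower in 5 of 6 (-0.25). Nonclassical monocyte markers were lower in 4 of 5 (-0.48) and red-cell markers higher in 6 of 7 (0.69). Several scores differed in direction between LG04, LG11, LG12 and LG15. In that order they changed by -3.0, -0.2, 2.1 and 1.6 for red cells and 0.57, -0.08, -0.15 and 0.32 for T cells. For nonclassical monocytes it was -1.72, 0.06, 0.37 and -0.58. Scores of platelets, B cells and NK cells each changed in 1 direction in all 4 animals. No marker of these lists passed edgeR's adjusted threshold. The scores of the covariate fits come from the same 16 libraries, and the part of these cells in the changes was not tested.

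Members of the group were unequal in how far they shared the common course. The Pearson correlation of a gene's within-animal log2 CPM with the mean of the other 36, over 16 libraries that share depth and cell makeup, was 0.93 for HERC5, 0.92 for XAF1, 0.91 for IFI6 and 0.91 for OASL. It was -0.04 for DTX3L and -0.26 for IFITM1. Outside the group and the lists, the genes with the most similar course to the mean of the 37 were DSN1 (0.90), GBP2 (0.89), BCAS3 (0.89 as well), ZNF777 (0.87), SFXN2 (0.86), CASP9 (0.84), SECTM1 (0.83) and KREMEN1 (0.82), given as a description without a test.

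Many of the genes lie side by side. In the macaque gene table of assembly T2T-MFA8v1.1, 36 of the 37 were found by symbol, and 20 lay within 3 protein-coding genes of another. These were the OAS1, OAS2 and OAS3 cluster, the IFIT cluster, and the pairs or trios MX1 and MX2, IFI44 and IFI44L, HERC5 and HERC6, SAMD9 and SAMD9L, RSAD2 and CMPK2, and PARP9, DTX3L and PARP14. Neighbours differed in some cases: at 1 day against 2 hours HERC5 had a log2 change of -1.44 ± 0.40 and HERC6 of -0.27 ± 0.19, and the difference between them was not tested.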

How the data were processed

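Counts per gene were deposited by the authors as whole numbers that are not normalized; FPKM values were deposited as well and serve only for levels between genes. Per the submitters' processing notes, reads were handled with FastQC, Trimmomatic, STAR and HTSeq on the human builds GRCh37 and hg19, and DESeq and edgeR are named too. Their versions, settings and strand use are not stated in those notes. Macaque reads on human gene models can be undercounted or given to a paralog (IFIT1 and IFIT1B, OAS, MX, IFI44 and SAMD9 pairs).

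Of 24 count columns in series-wide tables, 23 held the values of the library they name; the 2 hour column of LG04 held those of its 1 day library, so tables per animal were used. EdgeR 4.0.16 in R 4.3.3 (TMM, filterByExpr, quasi-likelihood F test) fitted all 16 libraries with time and animal (9 residual degrees of freedom). The animal term follows from the design: each animal gave 1 library per time. P-values were adjusted over 11545 genes at a threshold of 0.05. SE is the log2 change divided by the square root of F, and log2 CPM used a prior count of 2. DESeq2 1.42.0 was the alternative.

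Values of every library are given for called genes, filled up to 12 by the smallest p of the test of any time, and for the gene of highest CPM in each main subfamily; others were named after their values were seen. Values of 1 gene of the pathway lists are not reported here; it is included in the counts over those lists. The genes and lists were chosen with earlier results of these data known. The fit was checked on simulated counts. Floors cover counting error only, since single reads carry no molecular identifiers.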

Additional observations from a re-analysis of the deposited data

Results flagged for a closer look

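In the 17 genes named by rule, each group of 4 libraries at 1 time was searched for a library far from the other 3 (Dixon's gap ratio above 0.829); 19 of 68 groups had one, where chance gives about 1 in 20 groups of independent values. The 17 genes were measured in the same 4 animals and their levels run together, so this rate is no measure for the 19. LG11 held 13 of them, LG04 5 and LG12 1. Before dosing LG11 stood apart with 39.7 CPM in IFI44L, 136 in MX1, 33.0 in XAF1, 62.5 in EIF2AK2, 47.3 in OASL and 165 in DDX60. In IFIT5 it did so with 95.6 CPM at 2 hours and 83.6 CPM at 30 minutes, and in PARP14 with 511 CPM at 2 hours. At 1 day its values were 14.1 CPM in IFI44L, 21.7 in XAF1, 26.4 in PLSCR1 and 28.3 in OASL.

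LG04 stood apart in IFI27 with 23.1 CPM before dosing, 26.0 at 30 minutes and 32.5 at 2 hours, and in IFIT1 with 335 CPM at 2 hours and 197 at 30 minutes. LG12 was the low one in USP18 before dosing, with 2.91 CPM.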

How the results depend on the processing

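Median changes of the 37 genes kept their direction under every alternative run. At 1 day against 2 hours they ran between -0.84 and -0.41, at 1 day against pre-treatment between -0.75 and -0.25, and at 2 hours against pre-treatment between 0.16 and 0.30. Counts of called genes depended on the setting. The share of all genes called is given above for some settings only, and a count without it is no result particular to the 37. At 1 day against 2 hours the count of 4 was 9 in DESeq2, 5 with no filter on low counts (IFI6 added), 0 with no replicate block (no animal term in this paired design), 0 without the 4 shallowest libraries, 0 with only the 2 times compared, 2 with the platelet score, 1 without the 1 day library of LG04 and 0 without those of LG04 and LG15; leaving out each animal gave 0 in each case, from 0 to 0. Against pre-treatment the count of 0 at 1 day was 6 in DESeq2, 1 with no filter, 8 with the monocyte score and 1 (DDX60) without the 1 day libraries of LG04 and LG15, and that at 2 hours was 1 in DESeq2. At 1 day against 30 minutes it was 7, 2 and 5 in DESeq2, with no filter and with the monocyte score. For any time the count of 1 was 8 in DESeq2, 4 with no filter, 4 with globin genes taken out, and 0 with no block, without the 1 day library of LG04, without both, without the shallow libraries, with the platelet score and without any 1 animal. Between animals the count of 32 was 15 to 31 with an animal left out. Among the 17 genes named by rule, those that turned direction in the comparisons of 1 day with 2 hours or pre-treatment were IFIT1 at 1 day against 2 hours (0.53 and 0.17 without LG04 and LG11, in a range of -2.06 to 0.53 with an animal left out, and 0.31 without the 1 day library of LG04), IFIT1 at 1 day against pre-treatment (-0.76 without LG15, in a range of -0.76 to 1.33, -0.62 with the platelet score, -0.33 with the red-cell score, -0.46 without both 1 day libraries) and MX2 at 1 day against pre-treatment (0.051 without both). Over all 37 genes, 8 turned direction under at least 1 of 16 alternatives at 1 day against 2 hours and 11 at 1 day against pre-treatment, among them CMPK2 (0.02 at 1 day against 2 hours without the 1 day library of LG04; -0.77 against pre-treatment with the platelet score). The red-cell score and the removal of both 1 day libraries were added after the data were seen. The cause of these differences was not tested.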
